A study of Mus musculus with 12 samples.

Results

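The genes described here are 4 regulators of iron balance, Hamp, Hfe2, Tmprss6 and Aco1, and the peroxiredoxin gene Prdx1. These 5 of the 20294 autosomal genes on the array were selected on their measured DNA copy number in these same tumours, so their levels by tumour type and treatment are given as a description, without a test. They were read by 11 of the 170305 probes, namely those that the array files name for them. Hfe2, Hamp and Prdx1 each had a single probe, so their own value carries whatever is particular to that probe.

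Genomic DNA of 12 mouse tumours was set against one reference, C57BL/6 normal kidney DNA, on 2-colour arrays. The tumours were 4 renal cell carcinomas from mice given ferric nitrilotriacetate (Fe-NTA), 5 malignant lymphomas from mice given Fe-NTA and 3 malignant lymphomas from untreated mice, all of the C57BL/6 strain and each from its own animal. Mutyh knockout mice gave 3 carcinomas (KO1080, KO1097, KO1134), 2 lymphomas after Fe-NTA (KO1077, KO1111) and 1 untreated lymphoma (KO1414). Wild-type mice gave 1 carcinoma (WT1179), 3 lymphomas after Fe-NTA (WT1113, WT1114, WT1121) and 2 untreated lymphomas (WT1405, WT1420). The treated groups began with 20 male mice each, injected into the abdomen on 5 days a week for 12 weeks, starting with 1 week at 3 mg iron per kg and going on with 11 weeks at 5 mg iron per kg. Animals were killed near week 120. The share of tumour cells in each sample is not given in the sources used here, so a shallow change in all cells and a deeper change in fewer cells cannot be told apart.

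Fe-NTA is an iron chelate that drives oxidative damage in the proximal tubules of the rodent kidney, and Mutyh encodes a glycosylase of base excision repair that takes out adenine paired with oxidised guanine. Systemic iron is set by hepcidin, the liver hormone encoded by Hamp, which makes cells take the iron exporter ferroportin off their surface. Hemojuvelin, the product of Hfe2, is a co-receptor for bone morphogenetic proteins and raises hepcidin synthesis, while the membrane protease encoded by Tmprss6 cleaves hemojuvelin and lowers it. Within cells, Aco1 encodes the cytosolic aconitase that, without its iron-sulfur cluster, becomes iron regulatory protein 1 and binds iron-responsive elements in mRNAs. Prdx1 encodes a thiol peroxidase that removes hydrogen peroxide.

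The arrays lay on 3 slides of 4 arrays. Slide 1 held the 4 carcinomas, slide 2 held KO1077, KO1111, WT1113 and WT1114, and slide 3 held WT1121 with the 3 untreated lymphomas, so carcinoma and slide 1 cannot be told apart. At least 99.86% of the spots of each array stood well above background, and the signal to noise ratio lay between 63.6 and 123.7. All 15 spots of the 5 genes were well above background on all 12 arrays. The genotype labels were checked in the DNA. Of 2 Mutyh probes, the one at chromosome 4, 116490496 to 116490555 (mm9), read between -3.21 and -2.39 in the 6 knockout tumours and between -0.75 and 0.14 in the 6 wild-type tumours. The other, at 116480656, averaged -0.10 ± 0.30 in the knockouts and -0.03 ± 0.39 in the wild types (SD, n = 6 each). The T cell receptor alpha/delta locus averaged 0.02 ± 0.07 relative to its chromosome in the carcinomas (SD, n = 4) and -0.22 ± 0.11 in the lymphomas (SD, n = 8), and the immunoglobulin heavy chain locus averaged 0.09 ± 0.11 in the carcinomas and -0.25 ± 0.14 in the lymphomas. Profiles of local levels over all 20294 genes correlated at r = 0.74 between WT1113 and WT1114, and at 0.74 between the carcinomas KO1080 and KO1097, the highest pairs. The next lymphoma pair stood at 0.58.

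Each value below is the log2 ratio of tumour DNA to reference DNA, with 0 set at the most frequent value of the autosomal probes of that array. The own level is the mean over the probes of the gene, and the local level is the mean over all probes within 500 kb of it, own probes included. The local level rested on 60 probes at Aco1, 93 at Hfe2, 100 at Tmprss6, 82 at Hamp and 99 at Prdx1. Its standard error over probes in 1 tumour lay between 0.01 and 0.03. A gene is called lost or gained where its local level was at least 0.25 below or above 0.

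The probes were 60 bases long. Those that lie between other probes of the same gene, and the Prdx1 probe, which was spotted 5 times on each array, are shown as the array files give them, since the own levels of the genes on chromosomes 4 and 15 rest on them. The first 3 lie in Aco1 on chromosome 4, starting at 40101137, 40111720 and 40123849, the fourth in Tmprss6 on chromosome 15 at 78280763, and the last in Prdx1 on chromosome 4 at 116364137, all in mm9. Their share of G and C was 33.3%, 36.7%, 35.0%, 38.3% and 33.3% in that order.
Aco1 probe 2: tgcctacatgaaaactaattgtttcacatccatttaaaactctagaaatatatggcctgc
Aco1 probe 3: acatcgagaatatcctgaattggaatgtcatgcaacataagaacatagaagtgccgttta
Aco1 probe 4: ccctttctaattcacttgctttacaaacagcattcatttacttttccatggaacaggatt
Tmprss6 probe 2: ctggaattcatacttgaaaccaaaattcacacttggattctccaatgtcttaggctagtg
Prdx1 probe: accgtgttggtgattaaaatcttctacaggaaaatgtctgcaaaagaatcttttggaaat

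Aco1 and Prdx1 were lost in 4 of 4 Fe-NTA carcinomas and in 0 of 8 lymphomas, while Hfe2 was gained in 2 tumours, Tmprss6 in 3, and Hamp was neither lost nor gained in any. The calls came to 8 losses and 5 gains over the 5 genes and 12 tumours. Losses were common in the carcinomas. Of all autosomal genes, 15.2% were lost in WT1179, 17.3% in KO1097, 10.5% in KO1080 and 29.0% in KO1134. With the array median in place of the mode as 0, the KO1134 losses of both genes and the Tmprss6 gain of WT1405 no longer passed, leaving 6 losses and 4 gains. The share of all genes called with the median as 0 was not counted.

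**Figure D1:**
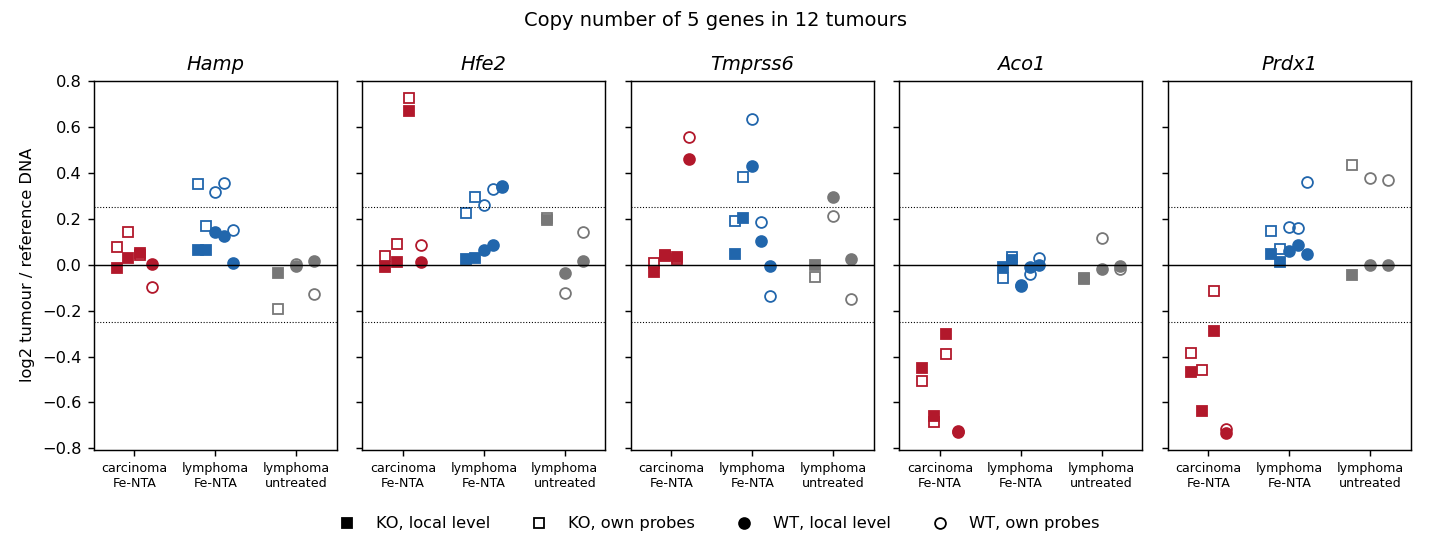
Log2 ratio of tumour to reference DNA for each gene (vertical axis) in Fe-NTA carcinomas, Fe-NTA lymphomas and untreated lymphomas. Filled symbols are local levels and open symbols own probes, squares are knockouts and circles wild types, and dotted lines mark 0.25 on either side of 0. Aco1 and Prdx1 lie below the lower line in all 4 carcinomas by their local level.

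Hamp, the hepcidin gene, lies on chromosome 7, where its probe covers 31727363 to 31727422 (mm9). Its local level was 0.00 in WT1179, 0.03 in KO1097, -0.02 in KO1080 and 0.05 in KO1134 among the carcinomas. It was 0.07 in KO1077, 0.06 in KO1111, 0.14 in WT1113, 0.13 in WT1114 and 0.01 in WT1121 among the Fe-NTA lymphomas, and -0.04 in KO1414, -0.00 in WT1405 and 0.02 in WT1420 among the untreated ones. All 12 values stayed inside the threshold, and the groups overlapped. WT1113 and WT1114, the highest of the 12, carried a gain further along the chromosome. Their segments around Hamp ended at 58067892 and 58044465 with means of 0.02 and 0.03, and the segments that followed had means of 0.32 in both.

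The local level of Hamp is a mean over 82 probes, so a single probe is bound to spread more widely. Single probes within 500 kb of Hamp had an SD between 0.13 (WT1121) and 0.20 (WT1114) within a tumour. The single Hamp probe gave a wider spread over tumours than the local level. It read 0.04 ± 0.10 in the Fe-NTA carcinomas (SD, n = 4), 0.27 ± 0.10 in the Fe-NTA lymphomas (SD, n = 5) and -0.11 ± 0.10 in the untreated lymphomas (SD, n = 3), with no overlap between the Fe-NTA lymphomas and either other group. The Fe-NTA lymphomas on slide 2 read 0.35, 0.17, 0.32 and 0.36, and WT1121 on slide 3 read 0.15. Slide and treatment moved together here, apart from WT1121. Within slide 3, WT1121 lay 0.26 above the mean of the untreated lymphomas. With normexp background correction the Fe-NTA minus untreated difference of the probe was 0.13, against 0.37. The neighbouring hepcidin copy Hamp2 was not analysed here, nor was the match of the Hamp probe to it.

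Hfe2, the hemojuvelin gene, was read by a single probe on chromosome 3 at 96329306 to 96329365 (mm9). Its local level was 0.01 in WT1179, 0.01 in KO1097, -0.01 in KO1080 and 0.67 in KO1134. It was 0.03 in KO1077, 0.03 in KO1111, 0.07 in WT1113, 0.08 in WT1114 and 0.34 in WT1121, and among the untreated lymphomas 0.20 in KO1414, -0.03 in WT1405 and 0.02 in WT1420. Carcinoma KO1134 stood highest, with 1.59 times the reference DNA, and lymphoma WT1121 came next with 1.26 times. KO1414 was raised by less than the threshold, and the other 9 tumours lay within 0.10 of 0.

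Gains were rare in KO1134, where 0.793% of autosomal genes were gained, and more frequent in WT1121 with 4.37%. The segment that held Hfe2 in KO1134 ran from 94820951 to 98785519 on chromosome 3, with a mean of 0.66 over 359 probes. Its neighbours had means of 0.25 before and -0.31 after it, and the median of chromosome 3 in this tumour was -0.29. Hfe2 in KO1134 thus lay in a segment of 3.97 Mb that stood above both its neighbours, on a chromosome that was mostly below 0. The segment before it was raised too, so the raised stretch is longer than 3.97 Mb. In WT1121 the segment covered 68.3 Mb, from 91249522 to the last probe, with a mean of 0.33, and the rest of the chromosome stood at 0.22. In KO1414 a segment of 2.23 Mb, from 95221048 to 97449272, had a mean of 0.19 between neighbours at -0.02 and -0.01. The segment of KO1414 lies inside that of KO1134.

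The Hfe2 probe itself read 0.73 in KO1134, close to its surroundings, and 0.04, 0.09 and 0.08 in the other carcinomas. In the Fe-NTA lymphomas it read between 0.23 and 0.34, with a median of 0.30, and in the untreated lymphomas 0.21, -0.12 and 0.14. These lymphoma groups did not overlap. On slide 2 the probe stood 0.23 ± 0.03 above its local level (SD, n = 4) and on slide 3 0.01 ± 0.09 (SD, n = 4). The part of the slide in this was not tested.

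Tmprss6, whose protease opposes hemojuvelin, was read by 3 probes on chromosome 15 between 78273861 and 78294150 (mm9). Its local level was 0.46 in WT1179, 0.04 in KO1097, -0.03 in KO1080 and 0.03 in KO1134. It was 0.05 in KO1077, 0.20 in KO1111, 0.43 in WT1113, 0.10 in WT1114 and -0.00 in WT1121, and among the untreated lymphomas -0.00 in KO1414, 0.29 in WT1405 and 0.03 in WT1420. The gains fell in 1 tumour of each group, all of them wild types: WT1179 with 1.37 times the reference DNA, WT1113 with 1.35 times and WT1405 with 1.23 times. Knockout KO1111 came next, raised by less than the threshold, with all of chromosome 15 in a single segment at 0.22. The share of autosomal genes gained was 5.26% in WT1179, 9.71% in WT1113 and 22.2% in WT1405. In the other wild types it was 7.54% in WT1114, 4.37% in WT1121 and 0.000% in WT1420. Among the knockouts it was 2.87% in KO1111, 0.867% in KO1414, 0.793% in KO1134, 0.030% in KO1077, 0.015% in KO1080 and 0.000% in KO1097. Gains of any gene were thus few in the knockouts, and the wild-type gains of Tmprss6 are to be read beside that.

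These gains were parts of long changes. In WT1405 chromosome 15 was a single segment at 0.29, and in WT1113 the segment ran from 71779209 to the last probe at 0.41. In WT1179 the segment of Tmprss6 ran from 72455397 to 81680598 with a mean of 0.44, followed by one at -0.72. Tmprss6 thus lay on the gained side of a boundary in that carcinoma. The chromosome 15 median was 0.43 in WT1179, 0.36 in WT1113 and 0.28 in WT1405, close to the local level of Tmprss6 in each.

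The own level of Tmprss6 was 0.55 in WT1179 and between 0.01 and 0.04 in the knockout carcinomas. It was 0.19 in KO1077, 0.38 in KO1111, 0.64 in WT1113, 0.19 in WT1114 and -0.14 in WT1121, and among the untreated lymphomas -0.05 in KO1414, 0.21 in WT1405 and -0.15 in WT1420. KO1111 thus read above WT1405, although its local level was lower. The own level stood above the local level by 0.15 ± 0.05 in the lymphomas of slide 2 and differed from it by -0.11 ± 0.05 in those of slide 3 (SD, n = 4 each), without overlap. The part of the slide in this was not tested. Its 3 probes differed from each other within a tumour. In WT1179 they read 0.87, 0.46 and 0.34 in order of position, and in WT1405 0.56, 0.03 and 0.04. Over the 8 lymphomas the first probe averaged 0.29 ± 0.21, the second -0.01 ± 0.29 and the third 0.20 ± 0.38 (SD over tumours).

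Aco1, which encodes iron regulatory protein 1, was read by 5 probes on chromosome 4 between 40093429 and 40138465 (mm9). Its local level was -0.73 in WT1179, -0.66 in KO1097, -0.45 in KO1080 and -0.30 in KO1134. It was -0.01 in KO1077, 0.02 in KO1111, -0.09 in WT1113, -0.01 in WT1114 and 0.00 in WT1121, and among the untreated lymphomas -0.06 in KO1414, -0.02 in WT1405 and -0.01 in WT1420. The carcinomas lay below every lymphoma, with 0.60 times the reference DNA in WT1179, 0.63 times in KO1097, 0.73 times in KO1080 and 0.81 times in KO1134. The difference in mean local level between the carcinomas and the Fe-NTA lymphomas was -0.52, against a pooled SD of 0.13. Between Fe-NTA and untreated lymphomas it was 0.01, within the pooled SD of 0.04.

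The own probes of Aco1 showed the same distance. Their mean was -0.58 ± 0.16 in the carcinomas (SD, n = 4), -0.03 ± 0.06 in the Fe-NTA lymphomas (SD, n = 5) and 0.01 ± 0.09 in the untreated lymphomas (SD, n = 3). The probes had different baselines: over the 8 lymphomas they averaged 0.30, 0.04, 0.04, -0.26 and -0.18 in order of position. Each of the 5 was lower in the carcinomas than in the lymphomas, by -0.58, -0.73, -0.51, -0.56 and -0.45 as carcinoma minus lymphoma means. In carcinoma KO1134 the first probe read -0.03 and the second -0.70, which shows how far single probes of a gene can part within a tumour.

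**Figure D2:**
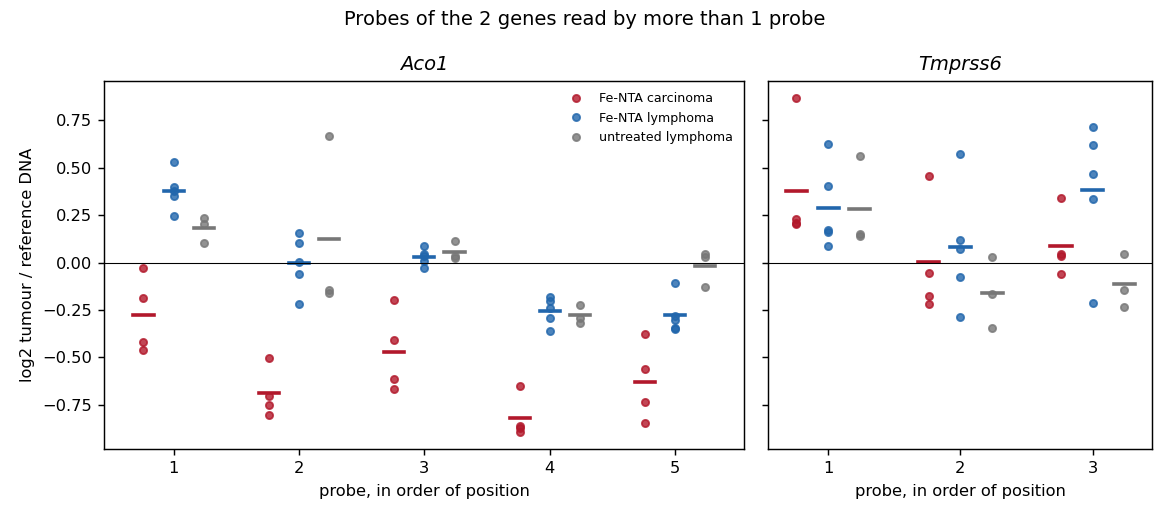
Log2 ratio of tumour to reference DNA (vertical axis) at each of the 5 Aco1 and 3 Tmprss6 probes, numbered by position. Points are tumours, coloured by group, and bars are group means. The baselines of the Aco1 probes differ, from 0.30 at the first to -0.26 at the fourth over the lymphomas, while each probe is lower in the carcinomas.

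Prdx1 lies 76.2 Mb from Aco1 on the same chromosome, and its probe covers 116364137 to 116364196 (mm9). Its local level was -0.73 in WT1179, -0.64 in KO1097, -0.47 in KO1080 and -0.29 in KO1134. It was 0.05 in KO1077, 0.01 in KO1111, 0.06 in WT1113, 0.09 in WT1114 and 0.05 in WT1121, and among the untreated lymphomas -0.04 in KO1414, -0.00 in WT1405 and -0.00 in WT1420. In each carcinoma the local levels of Prdx1 and Aco1 differed by at most 0.02. In the knockouts the Prdx1 level includes the Mutyh probe that read low in them. Without that probe Prdx1 stood at -0.44 in KO1080, -0.61 in KO1097 and -0.26 in KO1134. Aco1 stood at -0.45, -0.66 and -0.30 in these, so the levels were then less close in KO1097 and KO1134. The difference in mean local level between carcinomas and Fe-NTA lymphomas was -0.58, against a pooled SD of 0.13.

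Both genes had the level of their chromosome. The chromosome 4 median was -0.75 in WT1179, -0.67 in KO1097, -0.44 in KO1080 and -0.30 in KO1134. Of 1384 genes on chromosome 4, 92.2% were lost in all 4 carcinomas, and chromosome 4 held 1276 of the 1767 genes lost in all of them. In WT1179 a single segment from 6301006 to the last probe, with a mean of -0.72, held both genes. In the knockout carcinomas the segment of Aco1 ended between 111696213 and 111718240, and that of Prdx1 ran from 113590673 to 121395021 at -0.45, -0.65 and -0.30. These are KO1080, KO1097 and KO1134 in order, and the segment after that of Prdx1 was lower, at -1.38, -1.57 and -1.26. The Prdx1 segment of lymphoma KO1414 ended at the same place, followed by one at -0.99. In the knockout lymphomas KO1077 and KO1111 it ran on past that place.

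The gap between the segments of Aco1 and Prdx1 marks the knockouts rather than the carcinomas. In all, 74 autosomal probes read at least 1 lower in every knockout tumour than in every wild-type tumour, and all 74 lay on chromosome 4. One was the Mutyh probe at 116490496, and the other 73 lay between 111742887 and 113531185, where the knockouts averaged -3.58 and the wild types -0.20. The nearest of these 73 was 2.83 Mb from Prdx1 and none was within 500 kb of it. This Mutyh probe lay 126.3 kb from Prdx1 and so entered its local level. Without it the Prdx1 local level was -0.44 in KO1080, -0.61 in KO1097 and -0.26 in KO1134, still past the threshold. Leaving this probe out was chosen after the data were seen.

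**Figure D3:**
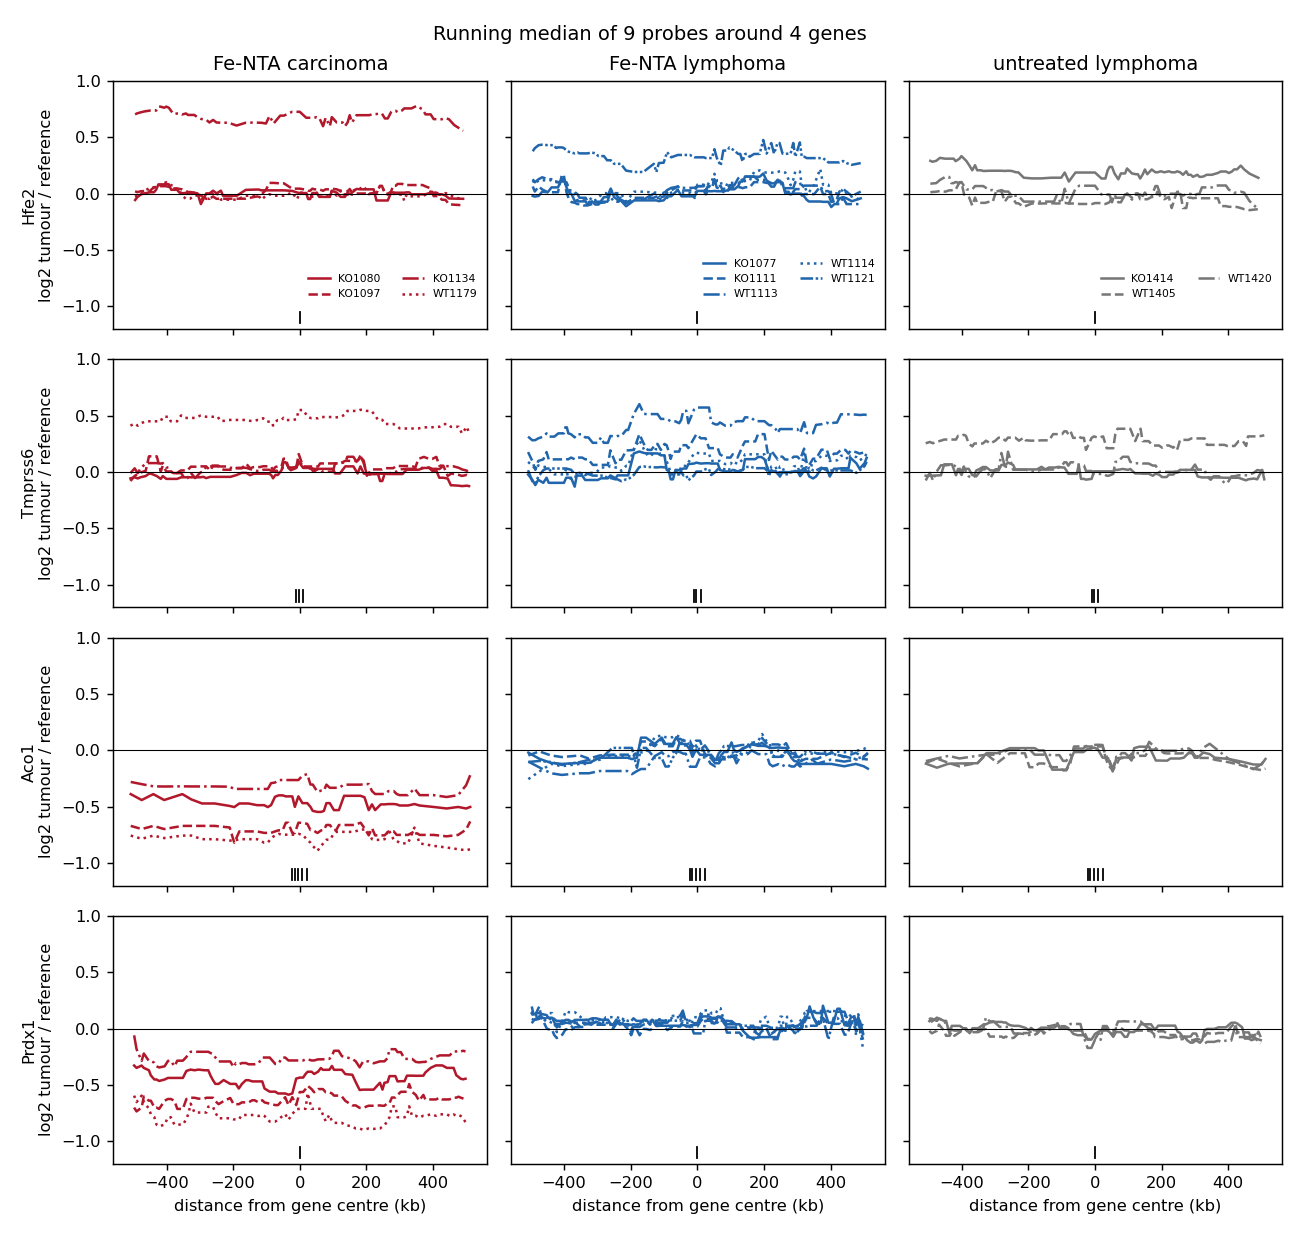
Running median of 9 probes (log2 ratio of tumour to reference DNA) against distance from the gene centre in kb, 1 line per tumour, with groups in columns and ticks at the gene's own probes. The levels run flat across the window at Aco1 and Prdx1 in the carcinomas, at Hfe2 in KO1134 and WT1121, and at Tmprss6 in WT1179, WT1113 and WT1405.

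The Prdx1 probe read higher than its surroundings in 12 of 12 tumours. It read -0.38, -0.46, -0.12 and -0.72 in KO1080, KO1097, KO1134 and WT1179. In the Fe-NTA lymphomas it read 0.15 in KO1077, 0.07 in KO1111, 0.16 in WT1113, 0.16 in WT1114 and 0.36 in WT1121, and in the untreated lymphomas 0.44 in KO1414, 0.38 in WT1405 and 0.37 in WT1420. The untreated lymphomas lay above all Fe-NTA lymphomas, and all lymphomas above all carcinomas. The spread over its 4 or 5 usable spots in 1 tumour had an SD between 0.04 and 0.16.

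The slides differed at this probe too, and their part in the treatment difference was not tested. It averaged 0.14 ± 0.05 in the lymphomas of slide 2 and 0.39 ± 0.03 in those of slide 3 (SD, n = 4 each). The Fe-NTA lymphoma on slide 3, WT1121, lay 0.03 below the mean of the untreated lymphomas on that slide, whereas the difference over all lymphomas was -0.21. The local level differed in the opposite direction, by 0.07 as Fe-NTA minus untreated. The raised Prdx1 probe was therefore not matched by a raised region, and WT1121 alone carries the comparison within a slide.

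**Figure D4:**
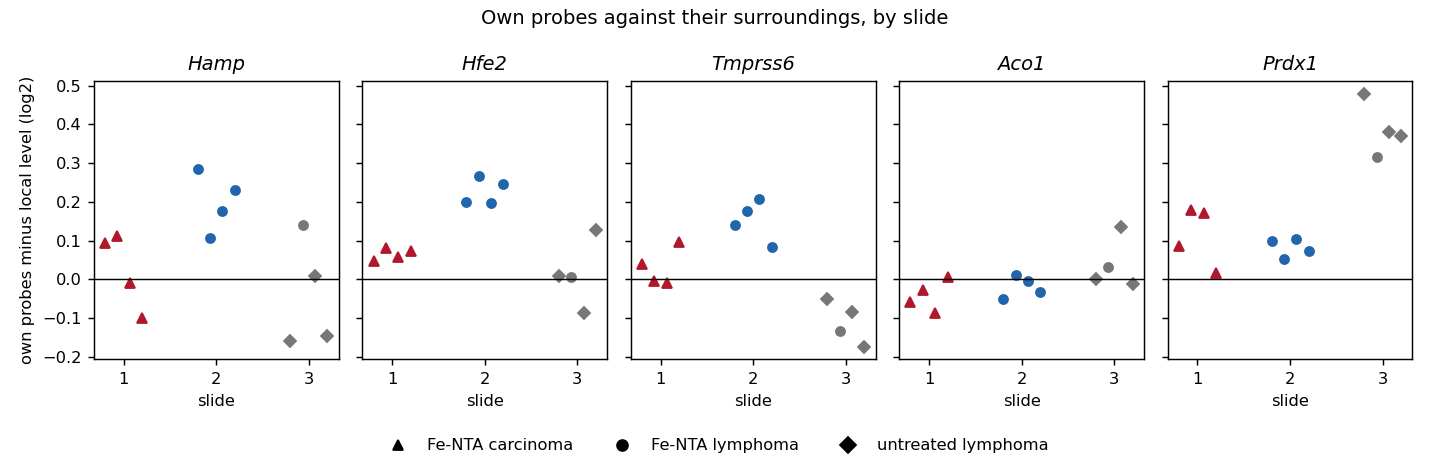
Own level minus local level (log2, vertical axis) for each gene by slide, with symbols for the group of each tumour. At Prdx1 all lymphomas of slide 3 stand higher than those of slide 2, and at Tmprss6 and Hfe2 all of them stand lower. At Hamp most of them stand lower, and at Aco1 slides 2 and 3 overlap.

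By own level, carcinomas and Fe-NTA lymphomas did not overlap at Aco1, Prdx1 and Hamp, 3 of the 5 genes, where 20.0% of all genes did so. By local level this held at Aco1 and Prdx1, 2 of the 5, beside 25.0% of all genes. Fe-NTA and untreated lymphomas did not overlap by own level at Hfe2, Hamp and Prdx1, beside 9.42% of all genes, and by local level at Prdx1, beside 9.54%. The genes were chosen on these values, so nothing is read from these shares.

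Genotype was the comparison the choice of genes did not turn on, and it was tested across all genes with limma, with tumour type and treatment as covariates. None of the 5 genes passed. By own level 0.0641% of genes had an adjusted p under 0.05 (13 of 20281, and 1038 at an unadjusted p under 0.05), and by local level 0.0739% did (15 of 20294, and 769 unadjusted). Of these, 12 and 15 lay on chromosome 4, and the called gene within 500 kb of Prdx1 was Mutyh itself, which fell by 1.12 in knockouts (own level, SE 0.07, limma adjusted p = 2e-06). That value averages both Mutyh probes, of which the one at 116490496 read low in the knockouts.

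The knockout minus wild-type difference of the Prdx1 local level was 0.05 (95% interval -0.10 to 0.20, limma adjusted p = 0.87), and that of its probe was 0.07 (-0.13 to 0.27, limma adjusted p = 0.90). The Prdx1 local level in this fit includes the Mutyh probe that read low in the knockouts, which lowers the difference. Leaving that probe out raised the local level in every knockout tumour, as from -0.04 to -0.02 in KO1414, and left WT1179 at -0.73. The genotype fit was not run without it. Aco1 differed by 0.08 in local level (-0.07 to 0.23, limma adjusted p = 0.86). Hfe2 differed by 0.05 (-0.22 to 0.32) and Hamp by -0.02 (-0.10 to 0.06), both with a limma adjusted p of 0.88. Tmprss6 had the largest difference of the 5, -0.19 (-0.39 to 0.01, limma adjusted p = 0.86), lower in knockouts. Without WT1179 it was -0.09. With slide in place of tumour type it was -0.24, with an unadjusted p of 0.018 and a limma adjusted p of 0.35. That fit gave the same values as leaving out WT1121, the lone Fe-NTA tumour on its slide, so it is not a separate adjustment for slide. The intervals show how large a genotype difference these 12 tumours leave possible at each gene.

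Over the 12 tumours, the genes at least 500 kb away whose local levels ran most like those of each gene, among 9047 to 9054 genes with at least 3 probes, lay on the same chromosome. For Aco1 these were AK144774, CK137956 and Ikbkap, and for Prdx1 Fgr, Ahdc1 and Wasf2, 16.2 to 16.3 Mb away, each with Pearson's r = 1.00 to 2 decimals over 12 tumours. For Hfe2 they were Gja5, Rprd2 and Hormad1 (r = 1.00, 1.00 and 0.98), all within 1 Mb, and for Tmprss6 Myh9, Ptk2 and Eif2c2. Hamp had Pou2f2, Grik5 and Arhgef1 (r = 0.98 to 0.99), between 5.82 and 6.02 Mb away. The most alike gene on another chromosome was AK133621 on chromosome 12 for Aco1 (r = 0.98), Baz1a on chromosome 12 for Prdx1 (r = 0.99), Sh2d3c on chromosome 2 for Hamp (r = 0.93), and Pcmtd1 on chromosome 1 for Tmprss6 (r = 0.82). The windows of Gja5, Rprd2, Hormad1 and Myh9 share 50, 30, 5 and 38 probes with that of Hfe2 or Tmprss6, so part of their likeness is built in. All these values share arrays and centring and are given as a description.

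The 5 genes were set beside other genes of iron handling and of thiol and peroxide metabolism. Of 45 other iron genes, 34 were on the autosomes of the array, and 0 of these 34 were lost in all 4 carcinomas, as were 8.71% of all genes. None of the 34 lies on chromosome 4, which held 72.2% of the genes so lost. Of 37 other redox genes, 29 were present, and 4 were lost in all 4 carcinomas: Txn1 (thioredoxin), Gpx7 (a glutathione peroxidase family member) and Sesn2 (a stress-induced sestrin), all on chromosome 4 like Prdx1, and Gpx2 (gastrointestinal glutathione peroxidase) on chromosome 12. Their mean local levels in the carcinomas were -0.51 ± 0.20, -0.55 ± 0.18, -0.53 ± 0.22 and -0.56 ± 0.21 (SD, n = 4 each), near the -0.53 ± 0.20 of Prdx1. None of the 63 genes passed the genotype test by local level. The median of the carcinoma means was -0.01 over the iron genes and -0.07 over the redox genes, against -0.02 over all autosomal genes.

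In at least 1 carcinoma, 12 of the 34 iron genes and 15 of the 29 redox genes were lost, 35.3% and 51.7%, beside 40.6% of all genes. The iron genes with the lowest carcinoma means changed in single carcinomas. Slc11a2, the divalent metal transporter, read -0.73 in WT1179 and between -0.02 and 0.08 in the knockout carcinomas, and Pcbp2, an iron chaperone, read -0.74 in WT1179. Both lie on chromosome 15, as does Tmprss6, which was gained in that tumour. Fbxl5, the iron-sensing ubiquitin ligase subunit, read -0.71 in WT1179, and Smad5, a mediator of bone morphogenetic protein signals, -0.68 in KO1097. Hephl1, a copper-dependent ferroxidase, read 0.64 in KO1134, the tumour with the Hfe2 gain.

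In the lymphomas 0 of the 63 genes were lost in any tumour, beside 1.09% of all genes. Gains of at least 0.25 in any lymphoma reached 12 of the 34 iron genes and 8 of the 29 redox genes, 35.3% and 27.6%, against 34.2% of all genes. By tumour, the iron genes gained were 1 in KO1111 (2.94%, beside 2.87% of all genes), 5 in WT1113 (14.7%, beside 9.71%), 4 in WT1114 (11.8%, beside 7.54%), 2 in WT1121 (5.88%, beside 4.37%) and 3 in WT1405 (8.82%, beside 22.2%). None was gained in KO1077, KO1414 or WT1420, where at most 0.867% of all genes were. The iron gene gained in KO1111 was Slc25a37 at 0.27, which also had the highest carcinoma mean of the iron genes, 0.17. It was not particular to KO1111, reading just under the threshold in most other tumours of all groups, such as 0.24 in WT1179 and 0.25 in KO1077 and WT1405. Lower values were -0.02 in KO1134, 0.05 in WT1113 and 0.07 in WT1114. Furin, a protease that processes hemojuvelin, read 0.50 in WT1113 and 0.40 in WT1114, and Hpx, the heme-binding hemopexin, 0.40 and 0.35. The peroxiredoxin gene Prdx6 read 0.32 in WT1113 and 0.48 in WT1114, on chromosome 1, and Prdx3 at most 0.18 in any lymphoma. Txn2, mitochondrial thioredoxin on chromosome 15, read 0.47 in WT1179, 0.41 in WT1113 and 0.30 in WT1405, the tumours in which Tmprss6 was gained. Its window shares 50 of the 100 probes of the Tmprss6 window.

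**Figure D5:**
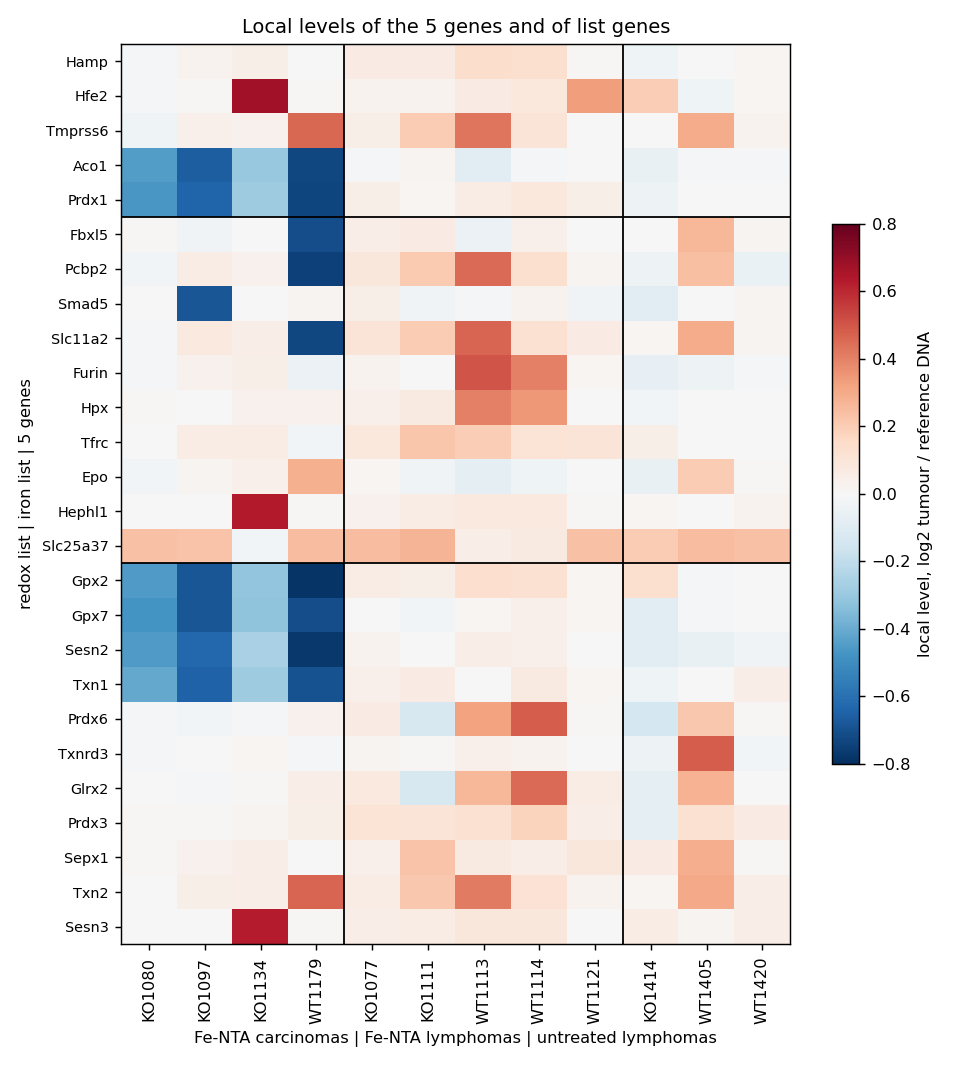
Local level (colour, log2 ratio of tumour to reference DNA) of the 5 genes, then of named genes of the iron list and of the redox list, in rows, over the 12 tumours in columns. Txn1, Gpx7, Sesn2 and Gpx2 are low in the same 4 carcinomas as Aco1 and Prdx1, and Txn2, which shares 50 of the 100 window probes of Tmprss6, is high where Tmprss6 is.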

How the data were processed

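The deposited intensity values are Agilent Feature Extraction processed signals (version 10.7 per the submitters' processing notes), background-subtracted and dye-normalized by the linear method per the file headers, with tumour DNA in Cy5 and reference DNA in Cy3 per the labels and no dye swap. The deposited series-wide table holds log2 ratios of the same arrays without centring. Spots flagged as outliers were left out, spots of a probe were averaged, and the log2 ratio was centred on the mode of the autosomal probes (Gaussian kernel, bandwidth 0.05). Positions are mm9 per the file headers; exon, intron and UTR annotation of that build was not used here.

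Segments came from penalised least squares (penalty 10, at least 5 probes), tested on simulated data. The genotype model used limma 3.58.1 (lmFit, eBayes; R 4.3.3), with p-values adjusted by Benjamini-Hochberg over all genes. In simulated data of the same size, a genotype difference of 0.4 was recovered for 53% of genes by own level (20281 genes) and 73% by local level (20294 genes), and one of 0.2 for 3% and 26%. The simulated noise was independent between genes, whereas in the tumours genes of a chromosome vary together and neighbouring windows share probes. These rates are therefore only a rough guide. Precision is limited by the number of arrays. The labels name an animal for each tumour, and each animal was 1 replicate.

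The 5 genes, the gene lists, the rules and the alternatives were chosen with earlier results of these data known. Named list genes are the 4 lowest and 4 highest by mean local level in the carcinomas and the 4 with the largest local level, up or down, in any lymphoma, plus any called by genotype. Alternatives were other centrings, normexp (offset 50), the series table, medians, other windows and thresholds, other covariates and each tumour left out.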

Additional observations from a re-analysis of the deposited data

Results flagged for a closer look

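Of 20 sets of values (own and local level of 5 genes in the 4 carcinomas and in the 5 Fe-NTA lymphomas), 6 held a tumour far from the others by Dixon's criterion. Its cut-offs are set so that about 1 set of 20 meets it where values are normally distributed. How often other genes of these arrays meet it was not counted. Other genes changed in single carcinomas too, such as Fbxl5 at -0.71 in WT1179 and Smad5 at -0.68 in KO1097. The 5 genes were also selected on these values, so the criterion only describes which tumour stood apart. The own and local levels of a gene share probes, so these are not 6 separate observations. Hfe2 in carcinoma KO1134 stood apart by own level (0.73, the other carcinomas 0.04 to 0.09) and by local level (0.67, the others -0.01 to 0.01). Tmprss6 in carcinoma WT1179 did so by own level (0.55, the others 0.01 to 0.04) and by local level (0.46, the others -0.03 to 0.04). Among the Fe-NTA lymphomas, the Hfe2 local level was apart in WT1121 (0.34, the others 0.03 to 0.08), and the Aco1 local level in WT1113 (-0.09, the others -0.01 to 0.02).

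Whether the genotype difference of a gene differs between carcinomas and lymphomas is not reported, since the wild-type carcinomas come to 1 tumour, WT1179.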

How the results depend on the processing

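The 8 losses and 5 gains of the 5 genes were counted again under other choices. At a threshold of 0.15 there were 8 losses and 7 gains, at 0.4 there were 6 and 3, with the median of the autosomal probes as 0 there were 6 and 4, and with segment means 8 and 5. The share of all genes called was not counted under these other choices, so these counts have no background beside them. The gains added at 0.15 were Tmprss6 in KO1111 and Hfe2 in KO1414, both knockouts. The losses missing at 0.4 and with the median were those of Aco1 and Prdx1 in KO1134, and the gains missing at 0.4 were Hfe2 in WT1121 and Tmprss6 in WT1405, Tmprss6 in WT1405 missing with the median too. The differences in local level at Aco1 and Prdx1 between carcinomas and Fe-NTA lymphomas moved by less than the spread between tumours in every alternative run. With each tumour left out they lay between -0.60 and -0.45 at Aco1 and between -0.66 and -0.52 at Prdx1. The same difference at Hamp, -0.06, became -0.0041 with the median as 0. At Hfe2 it ran from -0.10 (without KO1134) to 0.12, and at Tmprss6 from -0.14 (without WT1179) to 0.04. The Fe-NTA minus untreated difference at Prdx1, 0.07 in local level, was 0.0368 with the mode of 1 Mb bins, 0.0187 with normexp and 0.0387 with a window of 1 Mb. By own level normexp gave -0.35 at Prdx1 for carcinomas minus Fe-NTA lymphomas, against -0.60, and 0.13 at Hamp for Fe-NTA minus untreated lymphomas, against 0.37, and -0.11 at Aco1 for the same comparison, against -0.04. The cause was not tested.

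The genotype fit called 7 genes by own level when limited to genes with at least 3 probes (fewer genes tested, against 13), and 8 by local level with medians of probes (against 15). Leaving out a tumour gave 11 to 13 and 15. No gene of the 5 passed in any fit, and the sign of the genotype difference turned in some fits at the own level of Aco1, Tmprss6, Hamp and Prdx1 and at the local level of Hfe2 and Prdx1. It held in every fit run at the local level of Aco1, Tmprss6 and Hamp and at the own level of Hfe2. In lymphomas only, the own-level difference was -0.0255 at Aco1, 0.0057 at Tmprss6, -0.0566 at Hamp and -0.0569 at Prdx1, and the local one -0.0122 at Hfe2 and -0.0370 at Prdx1, each opposite in sign to that over 12 tumours. The fit without WT1179 gives these same values, since the carcinomas left are then all knockouts, so both are the same check. The Prdx1 local value includes the Mutyh probe that read low in the knockouts, and no fit was run without that probe. By own level, Hamp was -0.0122 with slide as a block, the same as without WT1121, and -0.0111 with normexp, and Prdx1 was -0.0015 with normexp. With a tumour left out, own-level differences ran from -0.0255 to 0.0879 at Aco1, -0.2410 to 0.0057 at Tmprss6, -0.0566 to 0.0610 at Hamp and -0.0569 to 0.1276 at Prdx1, and local ones from -0.0122 to 0.1042 at Hfe2 and -0.0370 to 0.0817 at Prdx1, 1 end of each range coming without WT1179, the lone wild-type carcinoma. Local differences also ran from -0.25 to -0.09 at Tmprss6 and from 0.0065 to 0.12 at Aco1, and the ends nearest 0 came without WT1179 too.

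Limits are that 3 of the 5 genes rest on a single probe, that carcinoma and slide 1 coincide, that treatment is confounded with slide among the lymphomas apart from WT1121, and that tumour cell share is unknown. No paired analysis was possible because each tumour came from a different animal.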
